A study of Mus musculus with 72 samples.

Results

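The genes described here are the synaptic adhesion and organizer genes of Pet1-lineage neurons of the mouse dorsal raphe nucleus (DR). They were taken by symbol: every gene whose name begins with Nrxn, Nlgn, Lrrtm, Slitrk, Lrrn, Cntn, Ntng, Adgrl, Flrt, Lrfn, Lrrc4, Cbln, C1ql or Nptx and that had a unique molecular identifier (UMI, 1 counted transcript molecule) in 10 or more cells of the filtered 10X table. That table lists 17231 genes, of which 70 matched by symbol and 68 passed. C1ql4 had a UMI in 7 cells and Lrrc43 in 6, and both were left out, whereas Lrrn4 (14 cells), Adgrl4 (18 cells) and Slitrk2 (23 cells) lay just inside. The letters Lrrc4 also took in 8 genes by spelling, Lrrc40 to Lrrc42 and Lrrc45 to Lrrc49, that are not of the adhesion families, which leaves 60 members of the named families. All 68 had a row in the table of manually sorted cells.

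Data of 2 kinds were collected, and in both the cells carried Pet1::Flpe+/-, a recombinase driven by regulatory sequence of Pet1 (gene symbol Fev), the transcription factor that marks serotonin neurons. The 10X cells came from the full DR of Pet1::Flpe+/-; hM3Dq+/+ mice at postnatal day 65.5 on average, and of En1::cre+/-;Pet1::Flpe+/-;RC::FrePe+/- animals, on average at day 59. In the first genotype Cre was not used, so the cells carried EGFP alone, and in the second EGFP marks only Pet1 neurons of the En1 lineage. The cells fall into 2 barcode sets, of 869 and 1481 cells, which the labels tie to neither run, and all animals of a run were pooled. The manual data are 70 single cells of 8 groups, all RC::FrePe+/- and Pet1::Flpe+/-, with Sert::cre+/- for 10 cells of the dorsolateral (Sert_Pet1_dlDR), 9 of the dorsomedial (Sert_Pet1_dmDR), 8 of the ventromedial (Sert_Pet1_vmDR) and 6 of the caudal DR (Sert_Pet1_cDR), with P2ry1::cre+/- for 10 caudal cells (P2ry1_Pet1_cDR), with Npy2r::cre+/- for 10 caudal (Npy2r_Pet1_cDR) and 9 rostral cells (Npy2r_Pet1_rDR), and with Crh::cre+/- for 8 rostral cells (Crh_Pet1_rDR). These mice were between postnatal days 62 and 119. Cre and Flpe together leave a lasting mark, so such a cell need not have made the Cre driver's transcript when it was sorted.

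Neurons join at synapses through proteins that reach across the cleft, and this gene set holds several of the known families. Neurexins on the presynaptic side bind neuroligins and LRRTM proteins on the postsynaptic side, and they also bind the secreted cerebellins, which bridge neurexins to glutamate receptors of the delta type. Latrophilins (Adgrl) bind FLRT proteins and teneurins, netrin-G1 (Ntng1) binds NGL-1 (Lrrc4c), secreted C1q-like proteins bind adhesion receptors of the Adgrb group, and neuronal pentraxins gather AMPA receptors. Serotonin neurons release their transmitter partly at sites without a matched partner, and some of them also carry Slc17a8, the vesicular glutamate transporter VGLUT3.

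Cells of the 10X table were sorted into 6 classes by the UMIs of 4 genes that vary widely among these neurons. Cells with at least 3 UMIs of Met, a receptor tyrosine kinase, formed the Met class (93 cells). Of the rest, cells under 500 CPM (UMIs of the gene per 1000000 UMIs) of Tph2, the rate-limiting enzyme of serotonin synthesis, formed the Tph2-low class (131 cells). The others were split by 3 UMIs of Gad2, a GABA-synthesis enzyme, and of Slc17a8 into the Gad2 class (872 cells), the Slc17a8 class (684 cells), the both class (256 cells) and the neither class (314 cells). These are ranges of counts and not cell types. There were 93 cells with exactly 2 UMIs of Gad2 and 97 with 3, 91 and 70 for Slc17a8, and 10 and 11 for Met, so a class border passes through a continuous range of counts.

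Cells held 12320 to 134079 UMIs with a median of 59646, and the median was lowest in the Tph2-low class, at 27329, and 46273 in the Met class. The serotonin markers, 7 genes including Tph2 and Fev, summed to 9845 CPM over all cells and to 1532 in the Tph2-low class. Marker lists of other cells stayed low, with astrocytes, microglia and vessels at 1.49, 1.49 and 3.15 summed CPM and oligodendrocytes at 33.4, where Mbp led with 22.0 CPM. The oligodendrocyte sum was 71.6 CPM in the Tph2-low class and 50.1 in the Met class, against 30.0 to 36.0 in the other 4. The vessel sum was 10.7 CPM in the Met and 11.4 in the neither class, mostly Rgs5. Markers of other neurons summed to 8.25 CPM in the Tph2-low class and to at most 1.26 in the others, and the part of these lists in the differences below was not tested. At least 3 Xist UMIs were found in 830 of 869 cells of barcode set 1 and in none of set 2, and at least 3 Y-linked UMIs in 1442 of 1481 cells of set 2 and in none of set 1, so sex and barcode set cannot be told apart. No barcode sequence occurred in both sets. The 10X table holds 2 runs that no label ties to the barcodes, so it was treated as 1 pooled sample without replicates. A level is given as CPM of summed UMIs with an exact Poisson 95% interval and a ratio with an exact binomial 95% interval. Both cover counting error only, and no p-value was computed.

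Most of these families were present in every class, while the levels of many members, and the sums of some families, differed between classes. Among the 62 members with at least 100 UMIs, 21 (33.9%) differed by less than 2-fold between their highest and lowest class, against 65.9% of all 12901 genes with as many UMIs, whereas 16 (25.8%, against 11.7%) differed by more than 5-fold or were at 0 in a class. The Tph2-low class was the highest for 33 of the 62 (53.2%, against 43.6% of all genes) and the Met class for 15 (24.2%, against 22.7%), and the Met class was also the lowest for 19 (30.6%, against 26.2%). Levels of different genes are set side by side here, because a UMI counts 1 molecule at its 3′ end whatever the length of the transcript. Whether transcripts of different genes are captured alike was not tested, so their order is a description of counts.

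**Figure D1:**
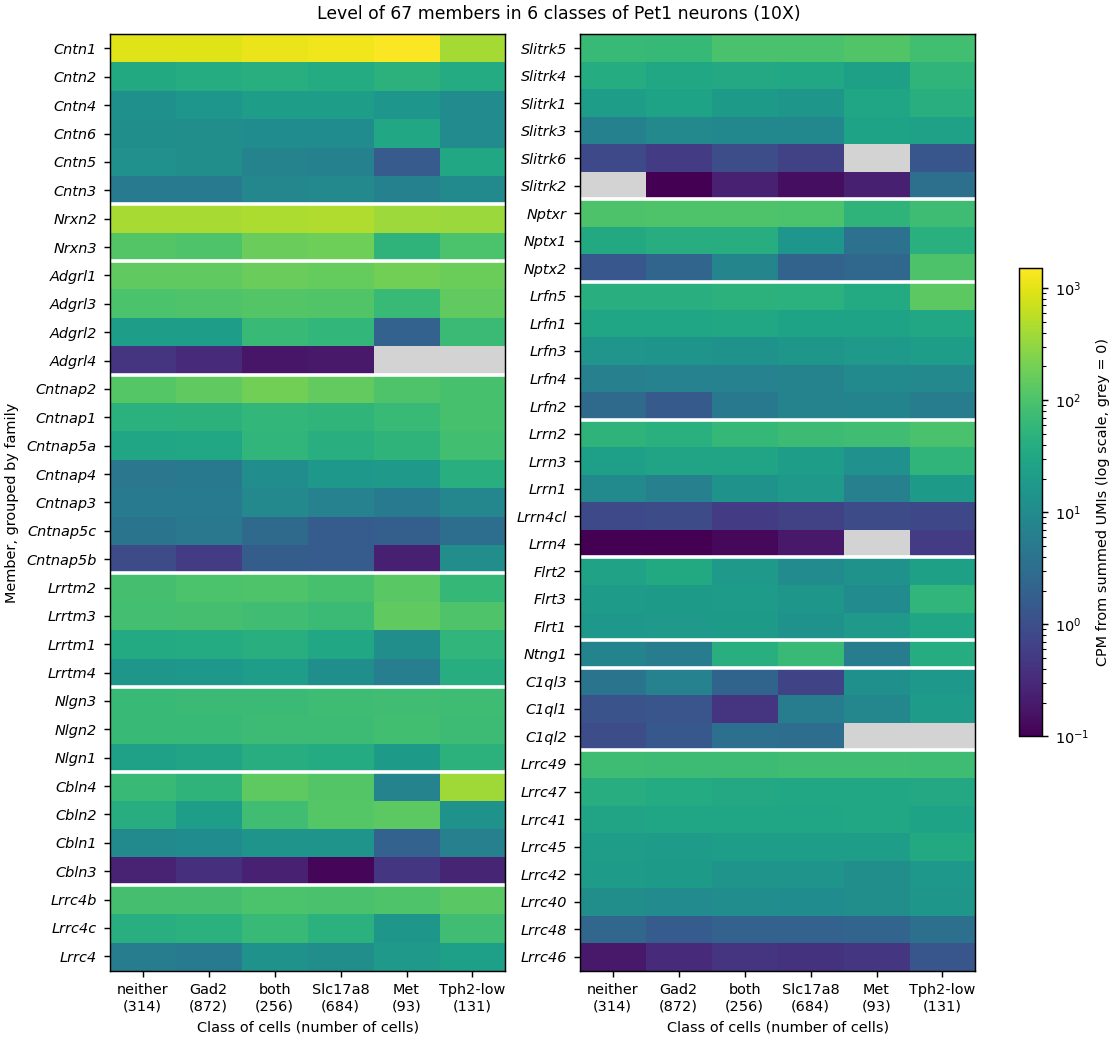
Level of 67 members in the 6 classes of 10X cells, as CPM of summed UMIs on a logarithmic colour scale, with the number of cells of each class in brackets, white lines between families and grey where no UMI was found. Cntn1 was the brightest row drawn in all 6 classes, and the rows of Nptx2, Cbln4, Cntnap5b, C1ql1 and Adgrl2 span over 30-fold between their highest and lowest class, that of C1ql1 through 1 Tph2-low cell with 71 of the 76 UMIs of the class.

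Among the presynaptic receptors, Nrxn2 moved little, from 354 CPM (335 to 373) in the Tph2-low and 362 in the Met class through 419 in the neither and 424 in the Gad2 class to 482 (475 to 489) in the Slc17a8 class. Its barcode sets were close, with 425 and 423 CPM in the Gad2 class and 480 and 483 in the Slc17a8 class, and were furthest apart in the Tph2-low class, at 323 and 380. Nrxn3 ran from 52.1 CPM (45.6 to 59.3) in the Met class through 96.9 in the Tph2-low, 105 in the Gad2 and 115 in the neither class to 164 in the both and 177 (173 to 181) in the Slc17a8 class.

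Among the postsynaptic partners of neurexins Nlgn2 and Nlgn3 were the most even. Nlgn2, the neuroligin of inhibitory synapses, lay between 67.2 CPM in the Gad2 class and 83.0 in the Met class, and Nlgn3 between 65.0 in the neither class and 77.2 in the Met class. Nlgn1, the neuroligin of excitatory synapses, had the wider range, from 19.0 CPM (15.1 to 23.5) in the Met class and 27.5 in the Gad2 class to 36.9 in the Slc17a8 and 48.2 (41.4 to 55.7) in the Tph2-low class. The LRRTM proteins, leucine-rich repeat receptors of excitatory synapses, parted in the Met class. There Lrrtm2 and Lrrtm3 were at their highest, 131 CPM (120 to 142) and 145 CPM (134 to 157), while Lrrtm1 and Lrrtm4 were at their lowest, 11.7 CPM (8.68 to 15.3) and 6.17 CPM (4.07 to 8.98). In the Tph2-low class Lrrtm2 was at its lowest, 61.0 CPM, and Lrrtm1 and Lrrtm4 at their highest, 57.0 and 39.7 CPM. Lrrtm3 was at 108 CPM there. In the other 4 classes Lrrtm2 lay between 88.0 and 106 CPM, Lrrtm3 between 69.1 and 88.0, Lrrtm1 between 30.7 and 42.0, and Lrrtm4 between 12.1 and 20.7.

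Of the secreted organizers, the cerebellins Cbln2 and Cbln4 had their highest levels in different classes. Cbln2 stood at 21.2 CPM (20.0 to 22.5) in the Gad2, 39.6 in the neither, 78.6 in the both, 117 (114 to 120) in the Slc17a8 and 131 (120 to 142) in the Met class, but at 13.3 (9.88 to 17.5) in the Tph2-low class. Cbln4 ran the other way in these last classes, with 7.31 CPM (5.00 to 10.3) in the Met class and 388 (368 to 408) in the Tph2-low class, against 52.4 in the Gad2, 66.5 in the neither, 115 in the Slc17a8 and 140 in the both class. Cbln2 was thus 93.0% of all cerebellin UMIs in the Met class and 3.26% in the Tph2-low class. Cbln1, the founding member known from cerebellar synapses, was low throughout, from 2.06 CPM in the Met and 6.66 in the Tph2-low class to 14.6 in the both class, and Cbln3 stayed under 0.46 CPM in all 6.

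Pentraxins were at 58.7 to 222 CPM in sum and C1q-like proteins at 6.08 to 37.3. Nptxr, the membrane-bound pentraxin receptor, lay within 98.8 to 108 CPM in the Gad2, Slc17a8, both and neither classes and stood at 75.1 in the Tph2-low and 52.6 (46.0 to 59.8) in the Met class. Secreted Nptx1 was at 33.9 to 40.7 CPM in the neither, Gad2 and both classes, at 43.9 in the Tph2-low, 15.7 in the Slc17a8 and 3.66 (2.09 to 5.94) in the Met class. Nptx2, an activity-regulated pentraxin, was at 103 CPM (93.3 to 114) in the Tph2-low class and between 1.35 and 7.90 elsewhere. C1ql1 lay between 0.425 CPM in the both class and 20.2 in the Tph2-low class, where 1 cell held 71 of the 76 UMIs and the level without it was 1.35 CPM. C1ql2 reached at most 3.40 CPM and had no UMI in the Met and Tph2-low classes, and C1ql3 lay between 0.712 in the Slc17a8 and 17.0 in the Tph2-low class.

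**Figure D2:**
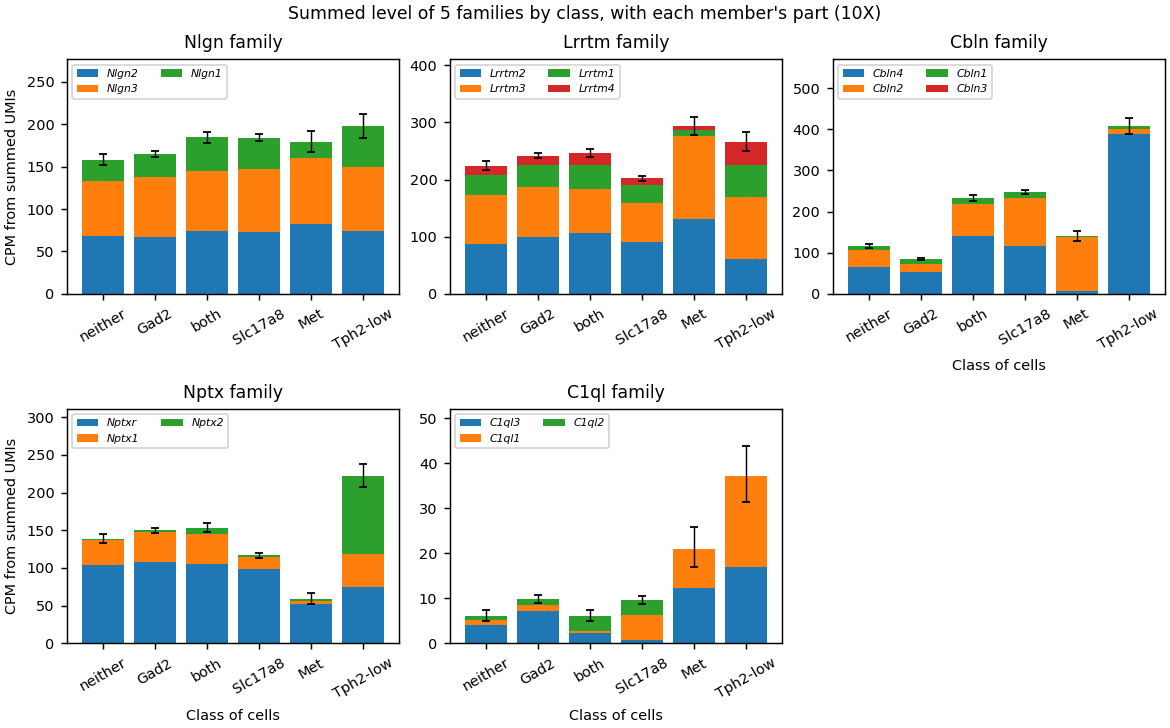
Stacked bars give the CPM of summed UMIs of each member of 5 families in the 6 classes of 10X cells, and the whisker is the exact Poisson 95% interval of the family's sum. The neuroligin total is nearly level, at 158 to 198 CPM, while cerebellins go from 84.6 CPM in the Gad2 class to 408 in the Tph2-low class.

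Of each other family the member with the most UMIs is given, and a few more. Cntn1, a contactin of axons and of nodes, was the member with the highest level of the whole set, at 922 CPM in both the Gad2 and neither classes, 1143 in the both, 1225 in the Slc17a8 and 1420 (1384 to 1455) in the Met class, but at 417 (397 to 439) in the Tph2-low class. Cntnap2, a partner of contactins, lay between 91.3 CPM in the Tph2-low and 194 in the both class. Adgrl1 lay between 141 and 196 CPM, Slitrk5 between 62.6 and 109, Lrrn2 between 45.5 and 94.5, and Lrrc4b (NGL-3) between 86.5 and 130. Lrfn5 (SALM5) was at 135 CPM (124 to 148) in the Tph2-low class and at 35.2 to 47.7 elsewhere. Flrt2, a ligand of latrophilins, ran from 10.2 CPM in the Slc17a8 to 34.9 in the Gad2 class. Ntng1, the sole netrin-G of the table, was at 5.93 CPM (5.30 to 6.62) in the Gad2, 5.94 in the Met, 7.70 in the neither, 38.3 in the Tph2-low, 40.8 in the both and 64.2 (61.8 to 66.7) in the Slc17a8 class. Its ligand gene Lrrc4c was at 43.8 to 79.1 CPM in 5 classes and at 16.5 in the Met class. Of the 8 genes taken in by spelling, Lrrc49 had the highest level and was the most even member of all, between 74.1 and 80.0 CPM.

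The comparison of the Gad2 class with the Slc17a8 class asks how adhesion genes differ between the 2 largest classes. Ntng1 and Cbln2 were the members furthest lower in the Gad2 class, and C1ql3 and Flrt2 the furthest higher. Among 60 tested members, those with at least 100 UMIs in the cells compared, 10 were lower by 2-fold or more (16.7%) where 2.95% of all tested genes were, and 4 were higher (6.67%) where 3.02% of all were. The median log2 ratio was -0.10 over the tested members and 0.01 over all tested genes.

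Ntng1 was at 5.93 CPM in the Gad2 class, 5.15 in barcode set 1 and 6.35 in set 2, and at 64.2 CPM in the Slc17a8 class, 65.8 and 63.4 in the 2 sets. The sets overlapped closely within a class and lay far apart between classes. The log2 ratio was -3.44 (-3.61 to -3.27), a 10.8-fold difference. Cbln2 was at 12.1 and 26.0 CPM in the 2 sets of the Gad2 class and at 86.6 and 132 in those of the Slc17a8 class, with a log2 ratio of -2.46 (-2.56 to -2.37). Set 2 held more Cbln2 than set 1 in both classes. Lrfn2 (SALM1), Cntnap4 and Lrrn1 had log2 ratios of -2.27, -1.79 and -1.43, none with an interval that reached -1. Adgrl2 (latrophilin-2) stood at 16.8 and 24.5 CPM against 64.6 and 54.7, and Cbln4 at 41.7 and 58.0 against 96.3 and 125, so that in neither gene did the sets of the 2 classes overlap. The log2 ratio of Cbln4 was -1.14 (-1.21 to -1.07). C1ql2 and Lrrc4 (NGL-2) had log2 ratios of -1.23 (-1.66 to -0.81) and -1.07 (-1.28 to -0.86).

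C1ql1 was the one of these 10 whose ratio was near 0 in a set, with a log2 ratio of -2.55 in set 2 but -0.08 in set 1. Lrrc4 was short of 2-fold in set 2, at -0.90 against -1.52 in set 1, and Adgrl2 was at -1.95 in set 1 and -1.16 in set 2. In the Slc17a8 class 9 cells, all of set 2, held 10 or more C1ql1 UMIs each and together 185 of the 238 UMIs of the class. No such cell occurred in the Gad2 class, where 60 cells held 67 UMIs and none more than 3.

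On the other side C1ql3 was at 7.21 CPM in the Gad2 class, spread over 214 cells, and at 0.712 in the Slc17a8 class, with a log2 ratio of 3.34 (2.80 to 3.93), and 3.78 and 3.18 in the 2 sets. Flrt2 was at 33.7 and 35.6 CPM in the 2 sets of the Gad2 class and at 9.82 and 10.3 in those of the Slc17a8 class, with a log2 ratio of 1.78 (1.63 to 1.94). Cntnap5c and Nptx1 had log2 ratios of 1.55 (1.15 to 1.95) and 1.32 (1.19 to 1.45). All 4 were past 2-fold in each set, though 2 were counted once cells were thinned to 20000 UMIs, and past 2-fold in each set were 8 of the 10 lower members. The both class, whose cells hold both transcripts, lay between the other classes for 8 of these 14 members, among them Ntng1, Cbln2, Flrt2 and Lrfn2. It lay outside them for 6, with Adgrl2 (67.6 CPM), Cbln4 (140 CPM) and Lrrc4 (13.8 CPM) above the Slc17a8 class. The same count over all genes past 2-fold was not made, so 8 of 14 cannot be read as particular to the members.

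Among these members Ntng1, Adgrl2 and Cbln4 were lower in the Gad2 than in the Slc17a8 class, and Flrt2 was higher. Over all classes the lower genes did not move together, since Ntng1 peaked in the Slc17a8 class and Adgrl2 and Cbln4 in the Tph2-low class. The promoters of these 4 members are printed for their direction in that comparison alone. Each is the 250 bases before a start site that RefSeq lists on GRCm38.p6, 5′ to 3′ on the gene's strand, in lower case. Capitals mark matches on either strand to an ETS core (CCGGAA or TTCCGG), the letters bound by the ETS family to which Pet1 belongs, to a GC box (GGGCGG or CCGCCC) and to a CRE half-site (TGACGT or ACGTCA).
Ntng1, chr3:110143473-110143722, minus strand: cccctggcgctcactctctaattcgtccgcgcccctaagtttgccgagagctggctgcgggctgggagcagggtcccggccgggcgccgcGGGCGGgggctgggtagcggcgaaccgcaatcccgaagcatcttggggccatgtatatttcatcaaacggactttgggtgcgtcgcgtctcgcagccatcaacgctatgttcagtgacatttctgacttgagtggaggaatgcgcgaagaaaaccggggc
Adgrl2, chr3:148954636-148954885, minus strand: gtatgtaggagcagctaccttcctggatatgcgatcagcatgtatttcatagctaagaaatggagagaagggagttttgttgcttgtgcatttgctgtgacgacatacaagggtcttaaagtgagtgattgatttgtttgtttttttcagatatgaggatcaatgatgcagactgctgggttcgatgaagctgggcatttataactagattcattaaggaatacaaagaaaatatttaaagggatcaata
Cbln4, chr2:172043467-172043716, minus strand: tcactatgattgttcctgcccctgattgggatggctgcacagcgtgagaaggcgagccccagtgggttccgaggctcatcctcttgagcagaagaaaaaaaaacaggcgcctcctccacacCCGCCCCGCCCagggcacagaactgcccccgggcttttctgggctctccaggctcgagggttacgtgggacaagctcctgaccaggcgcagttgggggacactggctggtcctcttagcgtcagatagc
Flrt2, chr12:95691976-95692225, plus strand: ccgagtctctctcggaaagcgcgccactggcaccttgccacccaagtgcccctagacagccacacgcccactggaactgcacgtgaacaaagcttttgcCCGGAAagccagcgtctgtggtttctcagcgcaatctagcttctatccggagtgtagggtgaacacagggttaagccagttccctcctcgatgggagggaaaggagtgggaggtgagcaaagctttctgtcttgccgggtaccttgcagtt

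The Ntng1 window held 1 GC box, the Cbln4 window 2 that overlap by 1 base, the Flrt2 window 1 ETS core, and the Adgrl2 window none of the motifs. The Adgrl2 window lies inside the gene as GENCODE draws it (chr3:148815583-148990555), as does that of Ntng1 (chr3:109780040-110144011), so other starts of these genes were not searched. The share of G and C was 37.6% in the Adgrl2 window and 57.2% to 62.4% in the others. Of 52 windows of 40 family members in the promoter table, 4 (7.69%) held an ETS core, 15 (28.8%) a GC box and 1 (1.92%) a CRE half-site, against 12.0%, 32.7% and 6.47% of all 32851 windows. These matches are a description of letters. The members also span long loci: in the GENCODE annotation of GRCm38 the median span of the 60 family members was 34.5 kb against 21.8 kb over all 10X genes with 1 entry, 41.7% spanned over 100 kb against 14.0%, and 6 spanned over 1000 kb, with Cntnap2 (2245 kb) and Nrxn3 (1612 kb, chr12:88722876-90334935) the longest.

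The comparison of the Met class with all other cells asks how the few cells rich in Met differ. Adgrl2 and Cbln4 were all but missing from it, Nptx1 and Nrxn3 were low, and Cbln2, Cntn6 and Slitrk3 were high. Of 62 tested members 14 were lower by 2-fold or more (22.6%) where 11.6% of all tested genes were, and 5 were higher (8.06%) where 3.64% of all were. The median log2 ratio was -0.04 over the tested members and 0.04 over all tested genes. This comparison and the next share most of their other cells, so their ratios are not independent.

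Adgrl2 was at 1.82 and 2.20 CPM in the 2 sets of the Met class, from 9 UMIs in 9 cells, and at 40.5 CPM in the other cells, with a log2 ratio of -4.30 (-5.43 to -3.37). Cbln4 was at 10.9 and 5.13 CPM in the sets and at 94.9 CPM elsewhere, with a log2 ratio of -3.70 (-4.25 to -3.20). A Cbln4 UMI was found in 8 of the 93 cells, and 14 and 12 of the 32 UMIs lay in 2 cells. Nptx1 had a log2 ratio of -3.10 (-3.91 to -2.40), Cntn5 of -2.70 (-4.01 to -1.65), and Cntnap5b, with 1 UMI in the class, of -2.61 (-7.92 to -0.11). Cbln1 (-2.56), Ntng1 (-2.34), Lrrtm1 (-1.64), Lrrc4c (-1.61), Lrrtm4 (-1.40), Nrxn3 (-1.39), Nptx2 (-1.19) and Lrrn3 (-1.01) followed on the log2 scale. C1ql2 had no UMI in the Met class, which puts it at least 3.14-fold lower when 3 counts are set in place of 0. The direction was the same in each set for all 14. Nptx2 had 10 of its 11 Met UMIs in 1 cell, and 388 of the 752 UMIs of the other cells lay in the Tph2-low class. With that class left out of the other cells Nptx2 was at 2.51 against 2.86 CPM, a log2 ratio of -0.18 (-1.20 to 0.67), and 12 members were lower, without Nptx2 and Lrrn3.

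Of the 5 higher members Slitrk3, a SLITRK of inhibitory synapses, stood at 35.3 and 20.5 CPM in the 2 sets against 9.25 CPM elsewhere, a log2 ratio of 1.49 (1.20 to 1.77). Cntn6 was at 32.8 and 29.3 CPM against 11.3, a log2 ratio of 1.44 (1.17 to 1.69). Both were high in many cells, with a UMI of Cntn6 in 65 and of Slitrk3 in 60 of the 93 cells. Cbln2 was at 128 and 132 CPM against 61.1, a log2 ratio of 1.10 (0.97 to 1.22), and 10% of the cells lay under 45.5 CPM. C1ql1 was at 8.68 CPM, with 38 UMIs over 25 cells and a log2 ratio of 1.49 (0.97 to 1.97).

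C1ql3 was counted as higher, at 12.3 CPM against 4.41 and a log2 ratio of 1.49 (1.06 to 1.89), but 49 of its 54 UMIs in the Met class lay in 1 cell of barcode set 2. Without that cell the log2 ratio was -1.93 (-3.55 to -0.70), and set 1 had no C1ql3 UMI in this class. Thinned to 20000 UMIs a cell, the ratio was likewise negative, at -2.62.

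**Figure D3:**
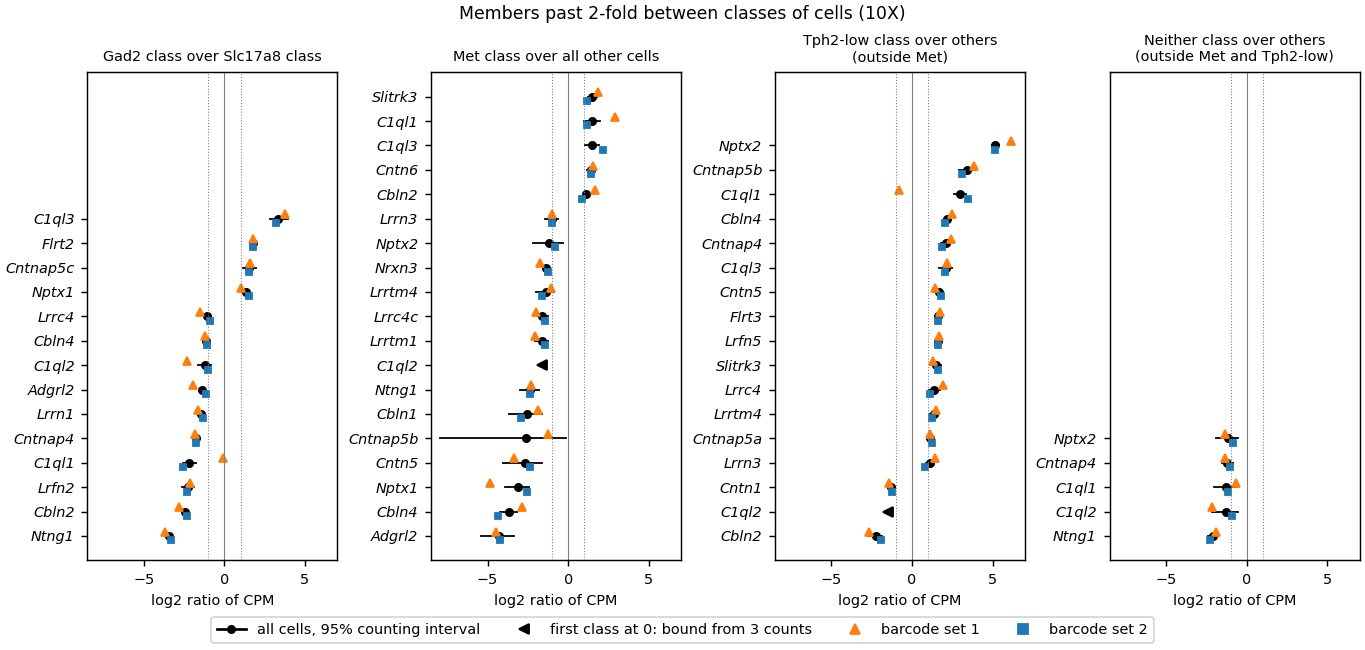
Members past 2-fold in each of the 4 comparisons of classes, on the log2 scale, with all cells as black points and their 95% counting interval, barcode set 1 as triangles and set 2 as squares, dotted lines at 2-fold and a left-pointing mark for a bound, while a set without UMIs is not drawn. Most triangles and squares lie on the same side of 0 as the point, and C1ql1 in the Tph2-low class is the one where set 1 lies on the other side.

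The Tph2-low class against the other cells outside the Met class held the largest single difference of the set, that of Nptx2. Of 62 tested members 14 were higher by 2-fold or more (22.6%) where 9.36% of all tested genes were, and 3 were lower (4.84%) where 6.83% were, a share below that of all genes. All log2 ratios of this comparison sit on a general shift, with a median of 0.18 over all tested genes and 0.50 over the tested members, and scaling by the median of ratios left 12 of the 14. The class also holds the fewest UMIs per cell, as given above, and the part of depth was not tested.

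Nptx2 (chr5:144545902-144557478 on GRCm38) stood at 64.2 and 138 CPM in the 2 sets of the Tph2-low class and at 2.86 CPM in the others, a log2 ratio of 5.18 (4.97 to 5.39), or 36.2-fold. It was found in 80 of the 131 cells, of which 10 held 10 or more UMIs, so the level was not that of a few cells. Cntnap5b had a log2 ratio of 3.42 (2.90 to 3.92), from 44 UMIs over 36 cells. Cbln4 was at 382 and 392 CPM against 86.3, a log2 ratio of 2.17 (2.09 to 2.25), and 97.7% of the class had at least 1 Cbln4 UMI. Cntnap4 and C1ql3 both had a log2 ratio of 2.08, with intervals of 1.83 to 2.32 and 1.68 to 2.46. Cntn5 (1.65), Flrt3 (1.63), Lrfn5 (1.59), Slitrk3 (1.48), Lrrc4 (1.39), Lrrtm4 (1.34), Cntnap5a (1.11) and Lrrn3 (1.11) followed on the log2 scale.

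C1ql1 was also counted as higher here, with a log2 ratio of 2.97 (2.59 to 3.33), but 71 of its 76 UMIs lay in 1 cell. Without that cell the log2 ratio was -0.94 (-2.57 to 0.30), and within barcode set 1 it was -0.80. Lower were Cbln2, at -2.23 (-2.66 to -1.83), and Cntn1, at -1.33 (-1.40 to -1.26), both in each set. C1ql2 again had no UMI, at least 2.77-fold lower with 3 counts in place of 0.

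**Figure D4:**
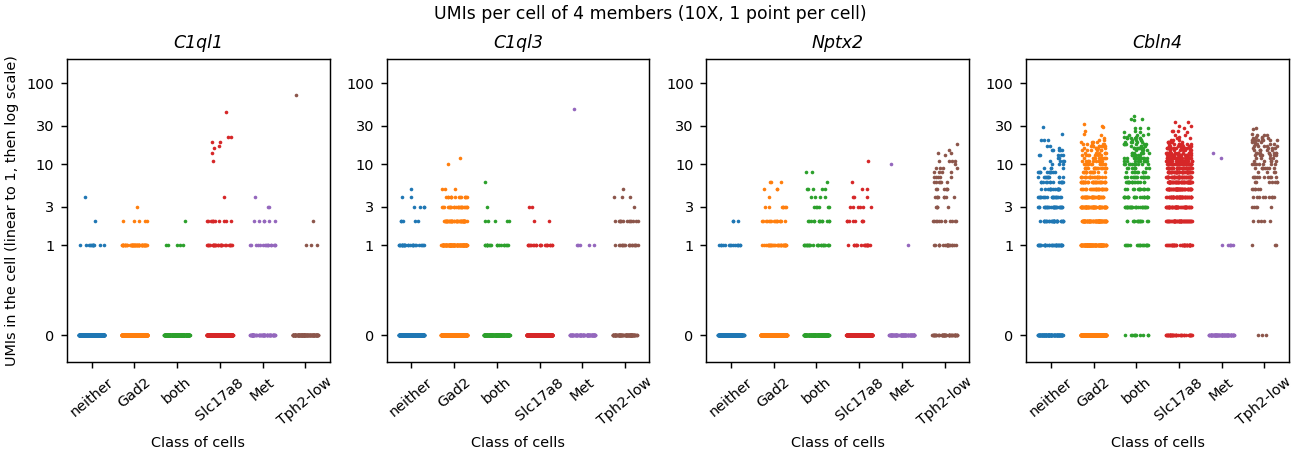
UMIs per 10X cell of C1ql1, C1ql3, Nptx2 and Cbln4 in the 6 classes, with 1 point per cell and an axis that is linear up to 1 UMI and logarithmic above. A single point stands alone at 71 UMIs for C1ql1 in the Tph2-low class and at 49 for C1ql3 in the Met class, whereas Nptx2 and Cbln4 in the Tph2-low class form clouds of cells.

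The neither class, cells with under 3 UMIs of both Gad2 and Slc17a8, held the fewest members past 2-fold. Against all other cells outside the Met and Tph2-low classes 0 of 61 tested members were higher by 2-fold where 0.305% of all tested genes were, and 5 (8.20%) were lower where 1.08% were. Ntng1 was at 8.42 and 7.04 CPM in the 2 sets against 33.0 in the other cells, a log2 ratio of -2.10 (-2.37 to -1.84). C1ql2 (-1.31), C1ql1 (-1.27), Nptx2 (-1.19) and Cntnap4 (-1.19) were the other 4. The call of C1ql1 rests on the 9 cells of the Slc17a8 class with 10 or more UMIs, and without them its level was 1.15 CPM in the neither class against 1.14 in the other cells, a log2 ratio of 0.02 (-0.78 to 0.74). Of these C1ql1, C1ql2 and Nptx2 rest on 18, 15 and 21 UMIs in the neither class, and in barcode set 1 the interval reached 0.68 for C1ql1 and 0.29 for Nptx2. In cells thinned to 20000 UMIs 2 members were counted as lower, and the ratio of Nptx2 was then near 0.

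Every cell with enough UMIs (2297 of 2350) was reduced at random to 20000 UMIs. Across these the members that varied most beyond counting were C1ql1, Nptx2, Cbln4, Nrxn3, Cbln2, Ntng1, Cntn1 and Adgrl2. Their Fano factors, the variance over the mean, were 7.26, 4.94, 4.13, 3.94, 3.72, 3.69, 3.58 and 2.73, against a median of 1.07 over the 11171 genes with a mean of at least 0.05. Over all unthinned cells 10 held 10 or more C1ql1 UMIs. Cntn1 was found in every thinned cell, so its spread is one of degree.

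Cbln2 and Cbln4 were also counted cell by cell. In the thinned Met class 46 of 91 cells (50.5%) held at least 3 Cbln2 UMIs alone, 1 held Cbln4 alone and none both, but 2 of 93 held both without thinning, so the count of 0 depends on depth and on the limit of 3 UMIs. In the thinned Tph2-low class 100 of 120 cells (83.3%) held Cbln4 alone, 2 both and none Cbln2 alone. The Slc17a8 class was split, with 25.4% Cbln2 alone, 30.1% Cbln4 alone and 9.88% both of 678 cells. Without thinning the shares with both were 2.15% in the Met, 3.05% in the Tph2-low and 45.3% in the Slc17a8 class, and those with Cbln2 alone and Cbln4 alone in the Slc17a8 class 15.4% and 34.6%, so that co-occurrence there depends on depth. Unthinned, the 2 Met cells with 3 or more Cbln4 UMIs both held Cbln2 as well, and 4 Tph2-low cells held both against 1 with Cbln2 alone, so these counts do not show that the transcripts exclude each other within a cell. No cells known to lack these transcripts are in the table, and the level that free RNA gives was not measured.

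Pairs of members that moved together within a class were sought by Spearman's rho over thinned cells, given here as a description, since the cells share libraries and depth. In the Slc17a8 class, over 678 cells and 1431 pairs of 54 members, the median rho was 0.013, 12 pairs passed 0.2 and 5 lay under -0.2. The highest were Cbln2 with Cntn1 (0.37), Cntn4 with Ntng1 (0.34), Cbln4 with Cntnap5a (0.29), Cbln4 with Nptx1 (0.27), Adgrl2 with Cbln2 (0.26) and Cntnap2 with Ntng1 (0.25). The lowest were Cbln2 with Nptx1 (-0.33), Cbln2 with Lrrtm1 (-0.27) and Cntn1 with Nptx1 (-0.27). In the Gad2 class, over 864 cells and 1225 pairs of 50 members, 9 pairs passed 0.2 and none lay under -0.2. Cntnap2 with Nrxn3 (0.27), Cbln1 with Cbln4 (0.27), Cbln1 with Nrxn3 (0.27), Adgrl2 with Nrxn3 (0.25), Cbln2 with Cntn1 (0.23) and Cbln4 with Nrxn3 (0.22) were the highest, and Cbln4 with Lrrtm3 (-0.16), Cbln2 with Nptx1 (-0.16) and Lrrtm3 with Nrxn3 (-0.13) the lowest. Each named pair had the same sign in both barcode sets. Cbln2 with Cntn1 was among the highest, and Cbln2 with Nptx1 among the lowest, in both classes.

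Other genes of the same adhesion systems, a list of 42 of which 40 were in the table, included teneurins and UNC5 receptors, which bind latrophilins and FLRT proteins. In the Met class 4 of 38 tested were past 2-fold higher (against 3.64% of all tested genes) and 9 lower (23.7%, against 11.6%), of which 7 were past in both barcode sets and Unc5b rested on 1 UMI. Unc5c was at 113 CPM in the Met class against 14.6, a log2 ratio of 2.96 (2.81 to 3.10), and Tenm4, Tenm1 and Tenm3 had log2 ratios of 1.90, 1.70 and 1.51. All 4 were at their highest of the 6 classes in the Met class, where Adgrl2 was at its lowest, while Tenm2 was lower there (-1.04). Cadm2, an adhesion molecule of the SynCAM group, was at 51.6 CPM against 235 (-2.18). Between the Gad2 and the Slc17a8 class 1 of 37 was higher (2.70%, against 3.02%), Tenm2 (1.24), and 2 were lower (5.41%, against 2.95%), Unc5c (-2.31) and Mdga1 (-1.50), a suppressor of neuroligin binding. In the Tph2-low class 5 of 38 were higher (13.2%, against 9.36%), led by Il1rapl1 (1.54), Tenm4 (1.37) and Adgrb3 (1.34), a receptor of C1q-like proteins. There 3 were lower (7.89%, against 6.83%, a share near that of all genes), none of them past 2-fold in both sets, and Unc5b had 1 UMI and an interval of -6.89 to 0.94. In the neither class 1 of 38 was past 2-fold (2.63%, lower, against 1.08%), Igsf21 at -1.07, and it was not past in both sets.

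The manually sorted cells were read in full length, so levels are compared between groups for 1 gene at a time, as CPM per cell. Each sample is 1 cell. The groups come from more than 1 mouse by the study's methods, and all but Sert_Pet1_cDR hold cells of several ages, but no label ties a cell to its animal, so the spread given is that between cells and no p-value was computed. Cells had 756872 to 7664103 reads. A member was counted where the mean log2(CPM + 1) differed by 2 or more, among genes with 10 CPM in at least 3 of the cells compared, and this scale understates the difference of low genes.

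Caudal cells of the P2ry1 and Sert drivers were compared to see how P2ry1-marked neurons differ from other serotonin neurons of the same region. Met reads were found in 9 of the 10 P2ry1_Pet1_cDR cells, with a median of 86.8 CPM, and in none of the 6 Sert_Pet1_cDR cells. Of 50 tested members 11 were lower (22.0%) where 13.9% of all tested genes were, and 1 was higher (2.00%) where 2.83% of all were, close to that of all genes. The median difference was -0.86 over the tested members and -0.48 over all tested genes, and P2ry1_Pet1_cDR cells had a median of 7947 genes with reads against 9269, at 3999547 to 6416860 reads against 3342867 to 4377495. The part of this in the lower values was not tested. The Sert_Pet1_cDR cells were all of postnatal day 63 and only 1 P2ry1_Pet1_cDR cell was, the others lying between days 62 and 74.

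Cbln4 lay between 0 and 0.190 CPM in the 10 P2ry1_Pet1_cDR cells, with a median of 0, and between 0.598 and 156 CPM, with a median of 121, in the 6 Sert_Pet1_cDR cells. The groups did not overlap, and the difference was -5.57 on the log2 scale. Nrxn2 lay between 9.50 and 77.0 CPM (median 20.3) against 81.6 and 327 (median 157), also without overlap, a difference of -2.88. These 2 of 50 tested members were the only ones counted here whose groups did not overlap, where 0.783% of all tested genes were past the limit without overlap. Adgrl2 was found in 1 of 10 cells, at 39.8 CPM, against all 6 cells at 1.17 to 77.8 CPM (median 32.4), a difference of -3.70. Lrfn4 (SALM3) had a median of 0 and a highest value of 54.0 CPM against 12.3 to 108 (median 29.0), a difference of -3.61. Nrxn3 lay between 0 and 39.1 CPM (median 4.12) against 30.4 and 129 (median 51.3), a difference of -3.50, and Cbln1 was at 0 in all 10 cells against a median of 14.2, a difference of -3.44. Ntng1 (-2.57), Nptxr (-2.55), Lrfn5 (-2.39), Lrrc45 (-2.11) and Lrrn1 (-2.06) were the other 5. With a pseudocount of 10 CPM in place of 1 the count of lower members was 2. Cntn6 was the member counted as higher, between 3.94 and 140 CPM (median 20.0) against 0 and 42.3 (median 0.279), a difference of 3.34.

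The P2ry1_Pet1_cDR cells and the 10X Met class are different cells, and their values can be set side by side. Of the 14 members lower in the Met class 5 (35.7%) were also counted as lower in P2ry1_Pet1_cDR, namely Adgrl2, Cbln1, Cbln4, Nrxn3 and Ntng1, which are 45.5% of the 11 counted there. Of the 14, 9 could be tested in the manual cells and 7 had the same sign, the exceptions being Lrrtm4 and Lrrn3. These shares were not computed over all genes, and the median difference over all tested genes of the manual comparison was itself negative, at -0.48. The counts therefore do not show that members agree more often than other genes. Of the others counted as lower in P2ry1_Pet1_cDR, Nrxn2 was at 362 CPM in the Met class against 445 in the other 10X cells, and Lrfn4 was at its highest of the 6 classes there, at 9.83 CPM. Cntn6 was past the limit as higher in both. Cbln2 was high in both sets of cells, at 33.4 to 314 CPM (median 110) in P2ry1_Pet1_cDR, but it was also at a median of 95.4 CPM in Sert_Pet1_cDR, and the difference of 0.94 on the log2 scale is under the limit.

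**Figure D5:**
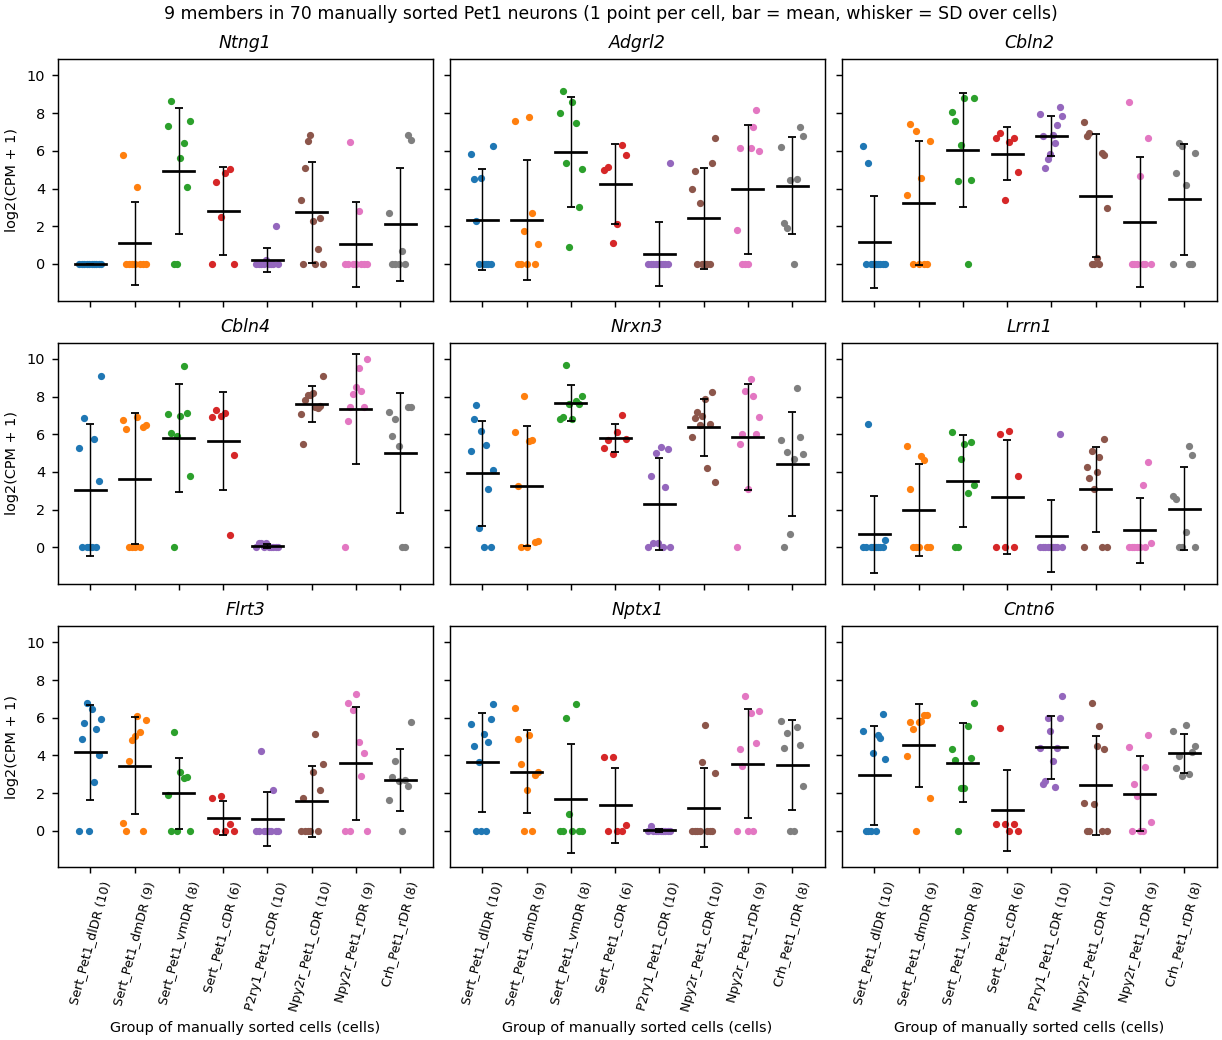
log2(CPM + 1) of 9 members in the 70 manually sorted cells by group, with 1 point per cell, the group mean as a bar and the standard deviation over cells as a whisker, and the number of cells in brackets. Ntng1 was at 0 in all 10 Sert_Pet1_dlDR cells, and Cbln4 was at or near 0 in all 10 P2ry1_Pet1_cDR cells.

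Dorsolateral and ventromedial Sert cells were compared as the 2 ends of the DR within 1 driver. Gad2 had a median of 51.4 CPM and Slc17a8 of 0 in Sert_Pet1_dlDR, and Gad2 a median of 0 and Slc17a8 of 287 CPM in Sert_Pet1_vmDR. Of 51 tested members 6 were lower in dorsolateral cells (11.8%) where 4.21% of all tested genes were, and 1 was higher (1.96%) where 2.02% of all were, a share like that of all genes. The median difference was -0.58 over the tested members and -0.10 over all tested genes.

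Ntng1 was at 0 in all 10 dorsolateral cells and between 0 and 392 CPM (median 66.1) in the 8 ventromedial cells, of which 6 held reads, a difference of -4.95. Cbln2 was found in 2 of 10 cells (highest 74.8 CPM) against 7 of 8 (median 133), a difference of -4.89. Nrxn3 lay between 0 and 184 CPM (median 24.6) against 110 and 815 (median 193), a difference of -3.73 with overlapping groups. Adgrl2 (-3.60), Lrrn1 (-2.83) and Cbln4 (-2.76) were the other 3. Flrt3, a ligand of latrophilins, was higher, between 0 and 109 CPM (median 35.0) against 0 and 36.4 (median 4.38), a difference of 2.19. That difference lay between 1.90 and 2.65 when single cells were left out and was 1.25 with a pseudocount of 10 CPM, so it is close to the limit. For all 7 the groups overlapped, and 0.0194% of all tested genes were past the limit without overlap. At postnatal day 63 (5 and 4 cells) and day 90 (5 and 4 cells) the differences kept their sign: -3.99 and -5.92 for Ntng1, -4.27 and -5.51 for Cbln2, -2.84 and -4.62 for Nrxn3, and 2.89 and 1.49 for Flrt3. Those of the other 3 were smaller at day 63 than at day 90, at -0.51 and -5.02 for Cbln4, -1.33 and -4.32 for Lrrn1 and -2.09 and -5.12 for Adgrl2, so Cbln4 and Lrrn1 were under the limit in the younger cells. Set beside the 10X comparison of the Gad2 and Slc17a8 classes, 5 of these 6 members (83.3%) were among the 10 lower there (50.0%), Nrxn3 being the exception at 105 against 177 CPM. The same shares over all genes were not computed.

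Of 51 tested members 2 were higher in rostral than in caudal Npy2r cells (3.92%) where 2.03% of all tested genes were, and 1 was lower (1.96%) where 2.68% were, a share below that of all genes. Nptx1 lay between 0 and 139 CPM (median 19.0) in the 9 rostral cells and between 0 and 47.3 CPM (median 0) in the 10 caudal cells, a difference of 2.34. Flrt3 was at a median of 16.3 against 1.16 CPM, a difference of 2.02, and Lrrn1 at a median of 0 against 13.2 CPM, a difference of -2.17. Each pair of groups overlapped. Leaving out single cells moved the difference between 1.55 and 2.46 for Flrt3, 1.89 and 2.82 for Nptx1 and -2.63 and -1.88 for Lrrn1, so each fell under the limit without some cell, and with a pseudocount of 10 CPM none was past it. With medians over cells in place of means 6 of 51 members were higher, where 6.39% of all tested genes were, and 9 lower, where 7.59% were. Of all tested genes 0.00968% were past the limit without overlap. Within postnatal days 77 and 87, the ages that both groups share, the differences of Nptx1 were 2.58 and 2.01, those of Flrt3 1.83 and 1.92, and those of Lrrn1 -3.26 and -1.60.

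Over all 8 groups Cbln4 was highest in the Npy2r cells, with medians of 283 CPM in rostral and 200 in caudal cells, followed by Sert_Pet1_cDR (121), Sert_Pet1_vmDR (95.4), Crh_Pet1_rDR (85.0), Sert_Pet1_dmDR (75.9), Sert_Pet1_dlDR (5.20) and P2ry1_Pet1_cDR (0). Neighbours in this order overlap, since single cells of most groups were at 0. Flrt2 reads were absent from all 6 Sert_Pet1_cDR cells and reached a median of 32.4 CPM in Sert_Pet1_dlDR. Nptx2, the member with the largest ratio in the 10X Tph2-low class, was found in 4 of the 70 manual cells, 1 in each of 4 groups. The lowest Tph2 level of any manual cell was 2720 CPM, above the 500 CPM that bounds that class.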

How the data were processed

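The 10X cells were sorted on a chip-based sorter, and their 3′ transcripts were counted by the authors with Cell Ranger 3.0.2 against mm10. The deposited values are UMI counts after the authors' filters on cells and genes. The manually sorted cells were made into full-length libraries, aligned with STAR 2.5.4 to mm10, and the deposited values are read counts per gene. The submitters' processing notes also name R 3.5.3. Whether counting used strand is not given in the sources used here.

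Counts were divided by each cell's or class's total and given as CPM. Members, gene lists and class limits were chosen with earlier results of these data known. A 10X member was counted where its CPM ratio passed 2-fold, over genes that reached 100 UMIs in the compared cells, and a manual one where mean log2(CPM + 1) differed by 2 among genes with 10 CPM in at least 3 cells. All genes of a table were processed alike. The 10X table is pooled, and no label ties a manual cell to its animal although the groups come from more than 1 mouse, so animals could not be used as replicates and no p-value was computed, and intervals of 95% cover counting error only. Named genes were every Nrxn, Nlgn, Lrrtm, Cbln, C1ql and Nptx member, the member with most UMIs of each other stem, the 5 largest differences in each direction of each comparison, the highest 6 and lowest 3 rank correlations in the Gad2 and Slc17a8 classes, and the 8 highest Fano factors. Members outside this rule were named after their values were seen.

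Cells were thinned to 20000 UMIs with fixed seeds for cell-by-cell shares, Fano factors and correlations. Scrublet, through scanpy 1.11.5 at an expected rate of 5%, marked 10 of 2350 cells (0.426%) as doublets, which were kept and left out in an alternative. Locations came from GENCODE M21 on GRCm38, in which 67 members were found. Python 3.11.15, numpy 2.4.6, scipy 1.17.1, pandas 2.3.3 and matplotlib 3.10.9 were used, and the ratio code was tested on simulated data. Alternatives covered the class limits, thinning, scaling, barcode sets, doublets, filters, the pseudocount, and leaving out each manual cell. A result is not reported here.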

Additional observations from a re-analysis of the deposited data

Results flagged for a closer look

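In the manually sorted cells 30 combinations of a counted member and a group were examined. In 5 of them a cell lay further from its group than Dixon's 95% critical value. That value assumes a normal distribution, and a group in which most cells lack reads can pass it when 1 cell holds reads. How often such groups are flagged by chance was not tested, so 5 of 30 cannot be read as an excess. Cntn6 was at 42.3 CPM in Sert_Pet1_cDR replicate 2, the highest of 6 cells, and Cbln4 at 0.598 CPM in Sert_Pet1_cDR replicate 5, the lowest of 6. Adgrl2 was at 39.8 CPM in P2ry1_Pet1_cDR replicate 10, the only cell of 10 with reads. Nrxn3 was at 815 CPM in Sert_Pet1_vmDR replicate 3, the highest of 8, and Lrrn1 at 91.0 CPM in Sert_Pet1_dlDR replicate 3, the highest of 10.

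For C1ql3 the Met class was at a log2 ratio of 2.15 against the remaining cells in barcode set 2 and had no UMI in set 1. The difference between the sets was not tested, and 1 cell of set 2 held 49 of the 54 UMIs.

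Genes of the same name stems outside the members had more than 3 reads in the manual cells. C1ql4 had 77 reads in 5 cells, Lrrc43 had 70 reads in 5 cells, and Ntng2, which has no row in the 10X table, had 40 reads in 1 cell.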

How the results depend on the processing

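No paired analysis was possible because the replicate numbers only name single cells. Ages do recur between groups, and the differences within each shared age are given as values, with no test, for Sert_Pet1_dlDR against Sert_Pet1_vmDR and Npy2r_Pet1_rDR against Npy2r_Pet1_cDR. Of 134 recomputed counts that left out no manual cell 117 stayed within 1.5 times the reported count. Thinning to 20000 UMIs gave 2 members higher in the Gad2 than in the Slc17a8 class (4 reported) and 2 lower in the neither class (5 reported). That last count was also 2 with a minimum of 5 UMIs, 2 in barcode set 1 and 3 in set 2, and set 1 gave 5 members lower in the Tph2-low class (3 reported). With a pseudocount of 10 CPM the manual counts were 0 higher and 2 lower for P2ry1_Pet1_cDR against Sert_Pet1_cDR (1 and 11 reported), 0 higher for Sert_Pet1_dlDR against Sert_Pet1_vmDR (1 reported), and 0 higher and 0 lower for Npy2r_Pet1_rDR against Npy2r_Pet1_cDR (2 and 1 reported). Medians over cells in place of means gave 2 higher, 5 higher, and 6 higher and 9 lower in these comparisons. Median-of-ratios size factors gave 1 higher in Npy2r_Pet1_rDR, and the 1 age that P2ry1_Pet1_cDR and Sert_Pet1_cDR share, with 1 cell of the former, gave 4 higher. Leaving out single cells gave 1 to 2 higher and 9 to 11 lower for P2ry1_Pet1_cDR, 0 to 3 higher and 6 to 8 lower for Sert_Pet1_dlDR, and 1 to 3 higher and 0 to 3 lower for Npy2r_Pet1_rDR. The direction turned 5 times among 403 recomputed values of single members: C1ql3 in the Met class (-2.62 thinned, and -1.25 in set 1 with 3 counts in place of 0), C1ql1 in the Tph2-low class (-0.80 in set 1), and in the neither class Nptx2 (0.000704 thinned) and C1ql1 (0.0179 without cells of 10 or more UMIs). Not among these 403 are the values without the cell that held most UMIs of a gene, where C1ql3 in the Met class (-1.93) and C1ql1 in the Tph2-low class (-0.94) also turned. None of 261 values turned when a manual cell was left out. Beyond what the alternatives' own construction shows, the cause was not tested. Leaving out the 8 genes of shared spelling, the cells with 10 or more C1ql1 UMIs, the Tph2-low class from the cells set against the Met class (6 higher and 12 lower), or each gene's highest cell was chosen after seeing the data, and the last gave 4 higher and 15 lower in the Met class (5 and 14 reported) and 13 higher in the Tph2-low class (14 reported). Depth limits members with few UMIs, among them C1ql1, C1ql2, Cntnap5b and Cbln3, each with under 30 in at least 1 class.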
